A study of Mus musculus with 8 samples.

Results

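The set described here holds 33 mouse genes, most of them for proteins that carry amino acids or small peptides across membranes, from the SLC1, SLC3, SLC6, SLC7, SLC15, SLC16, SLC36, SLC38 and SLC43 families. Members were chosen by gene name, and each of the 33 had 1 entry among the 55933 genes measured. They were measured by RNA-seq at pregnancy day 14.5 in mammary epithelium, in 1 library for each of 4 control mice and 4 mice with a conditional knockout of Bmpr1a (cKO), to compare gene expression with and without this BMP receptor. The cKO mice carried K14-rtTA, teto-Cre and Bmpr1a fl/fl alleles on a C57BL/6 background and received doxycycline in their drinking water, which switches on Cre in cells that use the K14 promoter, mainly myoepithelial cells. Control mice were C57BL/6 littermates, labelled WT; their alleles and whether they received doxycycline are not given in the sources used here, nor is the age of the mice used for RNA-seq. The glands were digested with collagenase and hyaluronidase, and fat and red blood cells were removed, so each library holds RNA of the whole epithelial preparation and of no sorted layer.

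Amino acid transporters set which amino acids enter, leave or are exchanged by a cell. The light chains of the SLC7 family reach the plasma membrane bound to the heavy chain Slc3a2, and most of them exchange 1 amino acid for another, whereas SLC38 and SLC6 members use the sodium gradient to concentrate amino acids in the cell. In the mammary gland of pregnancy and lactation, alveolar cells take up amino acids from blood for the synthesis of milk proteins, and amino acid supply is sensed by mTORC1 at the lysosome and by the kinase GCN2, which raises translation of the transcription factor ATF4.

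Expression was deposited as FPKM, a read density corrected for library size and for a fixed length of each gene. Levels, ranks and shares compared between genes therefore depend on that length, whichever transcripts were expressed. Between 16123108 and 19896988 reads fell on genes in each library. The targeted gene Bmpr1a measured 10.6, 11.7, 8.74 and 9.52 FPKM in control replicates 1 to 4 and 12, 12, 10.2 and 10.4 FPKM in cKO replicates 1 to 4. The groups overlapped, and cKO was not the lower group. Bmpr1a averaged 10.1 ± 1.28 FPKM in control and 11.2 ± 1.01 FPKM in cKO (SD, n = 4). In an exact two-sided permutation test on mean FPKM, p was 0.257, where the smallest p that 8 libraries in equal groups can give is 0.0286. FPKM over a whole gene count reads on every exon, from cells with and without Cre, so this value does not check the labels of the libraries. By other assays, the paper reports more Wap, Lalba and Csn2 mRNA and less K14 protein and p63 mRNA in cKO. Ratios of mean FPKM, cKO over control, were 4.84 for Wap, 2.16 for Lalba and 2.06 for Csn2. They were 0.767 for Krt14 and 0.683 for Trp63, the gene of p63, and the groups overlapped for Lalba and Krt14. Luminal epithelium markers (Epcam, Krt8, Krt18, Krt19, Cldn3 and Cldn7) summed to 5386, 4884, 5915 and 6236 FPKM in control replicates 1 to 4 and 4782, 4839.7, 6127 and 6255 FPKM in cKO replicates 1 to 4, so the labelled tissue was present in each library.

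By mean FPKM over control libraries, members spanned from 137 for the heavy chain Slc3a2 to 0.0651 for the glutamate transporter Slc1a2. Slc3a2, Slc38a2 and Slc7a5, the 3 most abundant members, held 61.6% of the FPKM summed over the members in control. Of the 33 members, 10 had a control mean of at least 10 FPKM, 16 had one from 1 to 10 FPKM and 7 had one under 1 FPKM. The sum over all members was 433, 412, 441 and 443 FPKM in control replicates 1 to 4 and 411, 358, 454 and 391 FPKM in cKO replicates 1 to 4. The sums overlapped between the groups, with cKO replicate 3 the highest library and cKO replicate 2 the lowest.

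To compare the groups, limma was run on log2(FPKM + 1) over the 15143 genes whose mean across the 8 libraries reached 0.5 FPKM, which kept 32 of the 33 members and left out Slc1a2 (7 to 32 reads per library). Each of the 32 had a mean of at least 0.5 FPKM in control and in cKO. At an unadjusted p under 0.05, the threshold of the study's methods, 4 members were higher in cKO (Slc6a14, Slc7a4, Slc7a7 and Slc36a1), 4 were lower (Slc7a11, Slc6a9, Slc16a10 and Slc7a3) and 24 were not called. That is 12.5% of the members tested in each direction, against 8.85% of all genes tested called higher and 7.53% called lower. With Benjamini-Hochberg adjustment over all genes tested, 2 members passed an adjusted p under 0.05, Slc6a14 and Slc7a11, against 0.892% of all genes, or 135 genes. Control and cKO values did not overlap for 6 of the 32 members (18.8%, against 10.7% of all genes tested).

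The median log2 difference over the members tested was -0.06, beside 0.001 over all genes tested. The members' median was -0.15 over the 27 with a mean of at least 1 FPKM, -0.0088 without cKO replicate 3 and -0.10 without cKO replicate 1. It was -0.10 with TPM, a scaling of every library to the same sum, with which the median over all genes was -0.05. The member with the most negative difference was Slc7a11 (-0.76) and the one with the most positive was Slc6a14 (0.73). The split of calls among members moved with the scaling between libraries: 3 members were called higher and 8 lower with TPM, 3 higher and 6 lower with the milk genes left out of that sum, and 3 higher and 9 lower with library totals. The split over all genes moved too, from 1340 higher and 1140 lower to 789 higher and 1657 lower with TPM, 925 and 1473 with TPM without milk genes, and 864 and 1792 with library totals. Since 1 FPKM is added before the logarithm, log2 differences understate the change of genes near 1 FPKM, and ratios of mean FPKM are given beside them. In bulk RNA, fewer cells of a type and less RNA per cell cannot be told apart.

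**Figure D1:**
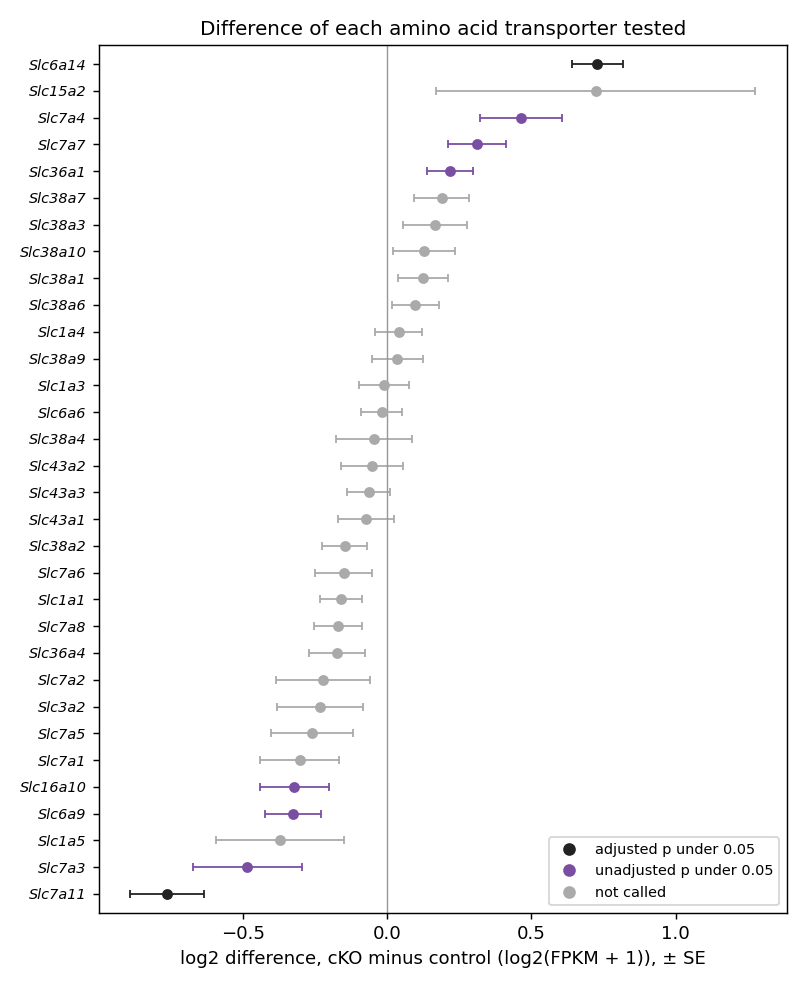
Log2 difference of each of the 32 members tested, cKO minus control on the log2(FPKM + 1) scale (x axis), with members ordered on the y axis by the difference. Points are limma estimates and bars are ± 1 SE; black points pass an adjusted p under 0.05, purple points an unadjusted p under 0.05 and grey points neither, and the bar of Slc15a2 (SE 0.552) is the widest of the 32.

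The preparation differed between the groups in markers of cell types. The calls of markers stand beside 8.85% of all genes tested called higher and 7.53% called lower. Of the 8 alveolar markers, which include the milk protein genes Csn2 and Wap, 7 were higher in cKO at an unadjusted p under 0.05 and 3 passed the adjusted threshold. Summed, they reached 2759, 2970.3, 3923 and 3984 FPKM in control replicates 1 to 4 and 6337, 6697, 7802 and 10964 FPKM in cKO replicates 1 to 4, with Csn2 the most abundant of them in each library, and none was at 0 in a library. Every cKO library exceeded every control library, and control replicates 3 and 4 exceeded control replicates 1 and 2. Whether the alveolar content of a library had a part in the level of any transporter was not tested.

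Among the 8 myoepithelial markers, Oxtr was called higher and Krt14 and Trp63 lower. They summed to 1967, 2060.1, 2644 and 2681 FPKM in control replicates 1 to 4 and 1790.3, 2089, 2486 and 2427 FPKM in cKO replicates 1 to 4, with Acta2 the most abundant by mean in both groups, and none was at 0. Of the 5 hormone-sensing luminal markers, 1 was lower (Cited1, adjusted p = 0.0268 with limma). They summed to 20.8, 20.5, 24.8 and 21 FPKM in control replicates 1 to 4 and 12.7, 16.1, 14.8 and 16.4 FPKM in cKO replicates 1 to 4, with Cited1 the most abundant in each control library and Foxa1 in each cKO library, and none was at 0. No luminal epithelium marker of the 6 and no fibroblast marker of the 6 was called. The fibroblast markers summed to 441, 773, 445 and 919.7 FPKM in control replicates 1 to 4 and 713, 433, 299 and 519.8 FPKM in cKO replicates 1 to 4, with Col3a1 the most abundant in each library, and none was at 0.

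Macrophage markers fell for 3 of 6 (Adgre1, C1qa and C1qb), and their sum was 174, 129, 157 and 166 FPKM in control replicates 1 to 4 and 133, 114, 86.9 and 134 FPKM in cKO replicates 1 to 4, with C1qa and C1qb the most abundant and close to each other. Lymphocyte markers fell for 1 of the 3 tested of 5 (Cd79a), and their sum was 8.82, 2.73, 20.0 and 2.25 FPKM in control replicates 1 to 4 and 2.46, 1.85, 1.23 and 2.05 FPKM in cKO replicates 1 to 4, with Cd79a the most abundant in each library. Control replicates 1 and 3 carried the most lymphocyte RNA and cKO replicate 3 the least. Endothelial markers fell for 2 of 6 (Pecam1 and Emcn), with sums of 117, 111, 129 and 113 FPKM in control replicates 1 to 4 and 116, 96, 85.2 and 108 FPKM in cKO replicates 1 to 4, with Cldn5 and Cdh5 the most abundant by mean and close to each other. Red blood cell markers fell for 2 of 5 (Hba-a1 and Hba-a2), with sums of 22.5, 23.6, 25.8 and 30.0 FPKM in control replicates 1 to 4 and 28, 15.2, 15.1 and 14.5 FPKM in cKO replicates 1 to 4, most of it Hba-a1. Adipocyte markers rose for 2 of the 3 tested of 6, both at few reads. Cidec had 11 to 79 reads per library, and Adipoq had 2 to 51 and overlapped between the groups. The adipocyte markers summed to 89.8, 77.6, 119.7 and 103 FPKM in control replicates 1 to 4 and 98.7, 119, 130.1 and 114 FPKM in cKO replicates 1 to 4. Most of this sum was Fabp4, which was not called (limma, unadjusted p = 0.158), and Lep was at 0 in at least 1 library. The part of these cell types in the values of the transporters was not tested.

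The heavy chain Slc3a2, also named 4F2hc or CD98, carries no amino acid itself and brings its light chains to the plasma membrane. Slc3a2 measured 129.7, 117, 151 and 152 FPKM in control replicates 1 to 4 and 111, 94.9, 154 and 112 FPKM in cKO replicates 1 to 4. It was highest in cKO replicate 3 and control replicates 3 and 4 and lowest in cKO replicate 2, so the groups overlapped. Slc3a2 averaged 137 ± 17.1 FPKM in control and 118 ± 25.1 FPKM in cKO (SD, n = 4). The difference was not called (log2 difference of -0.23, SE 0.15, limma, unadjusted p = 0.155, adjusted p = 0.488). It was called lower without cKO replicate 3 (log2 difference of -0.37, limma, unadjusted p = 0.0135), with TPM and with a replicate block (unadjusted p = 0.0299 with limma and 0.0141 with limma-voom). Over the 8 libraries left out in turn, the log2 difference ran from -0.37 to -0.14 (unadjusted p of up to 0.381, limma).

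Slc7a5, the LAT1 light chain that exchanges glutamine for leucine and other large neutral amino acids, measured 50.1, 48.4, 53.4 and 60.6 FPKM in control replicates 1 to 4 and 42.7, 35.5, 58.4 and 42.5 FPKM in cKO replicates 1 to 4. As for Slc3a2, cKO replicate 3 was far above the other cKO libraries, and for Slc7a5 it lay within the control range. Slc7a5 averaged 53.1 ± 5.36 FPKM in control and 44.8 ± 9.69 FPKM in cKO (SD, n = 4), without a call (log2 difference of -0.26, SE 0.141, limma, unadjusted p = 0.0987, adjusted p = 0.405). Without cKO replicate 3 it was called lower (log2 difference of -0.39, limma, unadjusted p = 0.00486), as it was under each of the 3 other scalings, with replicates 1 and 2 as 1 block and 3 and 4 as the other (unadjusted p = 0.0459, limma) and with limma-voom and a replicate block (unadjusted p = 0.0308). With 1 library left out, the log2 difference of Slc7a5 ran from -0.39 to -0.16 (unadjusted p of up to 0.262, limma).

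Slc7a8, the LAT2 light chain, also carries large neutral amino acids and ranged from 2.92 to 3.59 FPKM in control and 2.4 to 3.12 FPKM in cKO (log2 difference of -0.17, limma, unadjusted p = 0.0749). Slc7a6, the y+LAT2 light chain, exchanges cationic for neutral amino acids and sodium, and ranged from 4.58 to 6.11 FPKM in control and 4.23 to 5.41 FPKM in cKO (log2 difference of -0.15, limma, unadjusted p = 0.166). Neither was called, and the groups overlapped for both. Slc7a8 was called lower with library totals and without cKO replicate 1 (log2 difference of -0.22, limma, unadjusted p = 0.0361). Slc7a6 was called lower without control replicate 3 (log2 difference of -0.22, limma, unadjusted p = 0.0482) and with replicates 1 and 2 as 1 block and 3 and 4 as the other (unadjusted p = 0.036, limma).

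Slc7a7, the y+LAT1 light chain (ENSMUSG00000000958, chr14:54369442-54417780, minus strand), exports cationic amino acids such as arginine and lysine at the basolateral membrane of gut and kidney epithelia. It measured 2.38, 2.87, 3.26 and 3.04 FPKM in control replicates 1 to 4 and 4.05, 3.31, 3.53 and 4.4 FPKM in cKO replicates 1 to 4. Each cKO library was above each control library, although cKO replicate 2 exceeded control replicate 3 by little. Slc7a7 averaged 2.89 ± 0.371 FPKM in control and 3.82 ± 0.494 FPKM in cKO (SD, n = 4), a ratio of 1.32. It was called higher without adjustment only (log2 difference of 0.31, SE 0.10, limma, unadjusted p = 0.0131, adjusted p = 0.177), in each of the 19 alternatives (log2 differences of 0.25 to 0.41). Its exons overlap those of Oxa1l on the other strand, which held up to 1126 reads in a library against 137 to 271 for Slc7a7, and since counting by strand is not stated, reads of both genes cannot be told apart there.

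Slc7a11 (ENSMUSG00000027737, chr3:49892526-50443614, minus strand) encodes xCT, the light chain that takes up cystine in exchange for glutamate and so supplies cysteine for glutathione. It measured 5.02, 5.08, 4.09 and 4.71 FPKM in control replicates 1 to 4 and 2.69, 2.27, 3.0 and 1.67 FPKM in cKO replicates 1 to 4. All control libraries were above all cKO libraries, and the gap held for cKO replicate 3, the highest of the cKO libraries, as well. Slc7a11 averaged 4.72 ± 0.449 FPKM in control and 2.41 ± 0.577 FPKM in cKO (SD, n = 4), a ratio of 0.51. It was lower in cKO and passed the adjusted threshold (log2 difference of -0.76, SE 0.127, limma, unadjusted p = 2.16e-04, adjusted p = 0.0377). The unadjusted call held in each of the 19 alternatives (log2 differences of -1.01 to -0.65). The adjusted call was lost with no filter on low values, with a replicate block (adjusted p = 0.0706, limma), and without any 1 library other than cKO replicate 3, with adjusted p from 0.0466 to 0.11 and log2 differences of -0.84 to -0.65 over the 8 libraries left out.

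Summed over the 5 light chains Slc7a5, Slc7a6, Slc7a7, Slc7a8 and Slc7a11, expression was 66.7, 65.5, 68.3 and 77.2 FPKM in control replicates 1 to 4 and 57.6, 49.3, 71.9 and 55.4 FPKM in cKO replicates 1 to 4. The ratio of Slc3a2 to this sum was 1.98 ± 0.178 in control and 2.01 ± 0.101 in cKO (SD, n = 4), a difference smaller than the spread between mice. Slc7a5 held 76.4% of the light chain sum in control and 76% in cKO. The share of Slc7a11 was 6.84% ± 0.921 in control and 4.12% ± 0.77 in cKO, and that of Slc7a7 was 4.17% ± 0.522 and 6.65% ± 1.27 (SD, n = 4). By FPKM, the share of Slc7a7 exceeded that of Slc7a11 in each cKO library, and in each control library the order was the reverse. This order depends on gene length, 3315 bases for Slc7a7 and 13922 bases for Slc7a11. Slc7a7 had 137 to 271 reads per library and Slc7a11 had 431 to 1230, so Slc7a11 had more reads in every library. Reads of Oxa1l may be among those of Slc7a7. These shares were set up after the values were seen and carry no test.

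**Figure D2:**
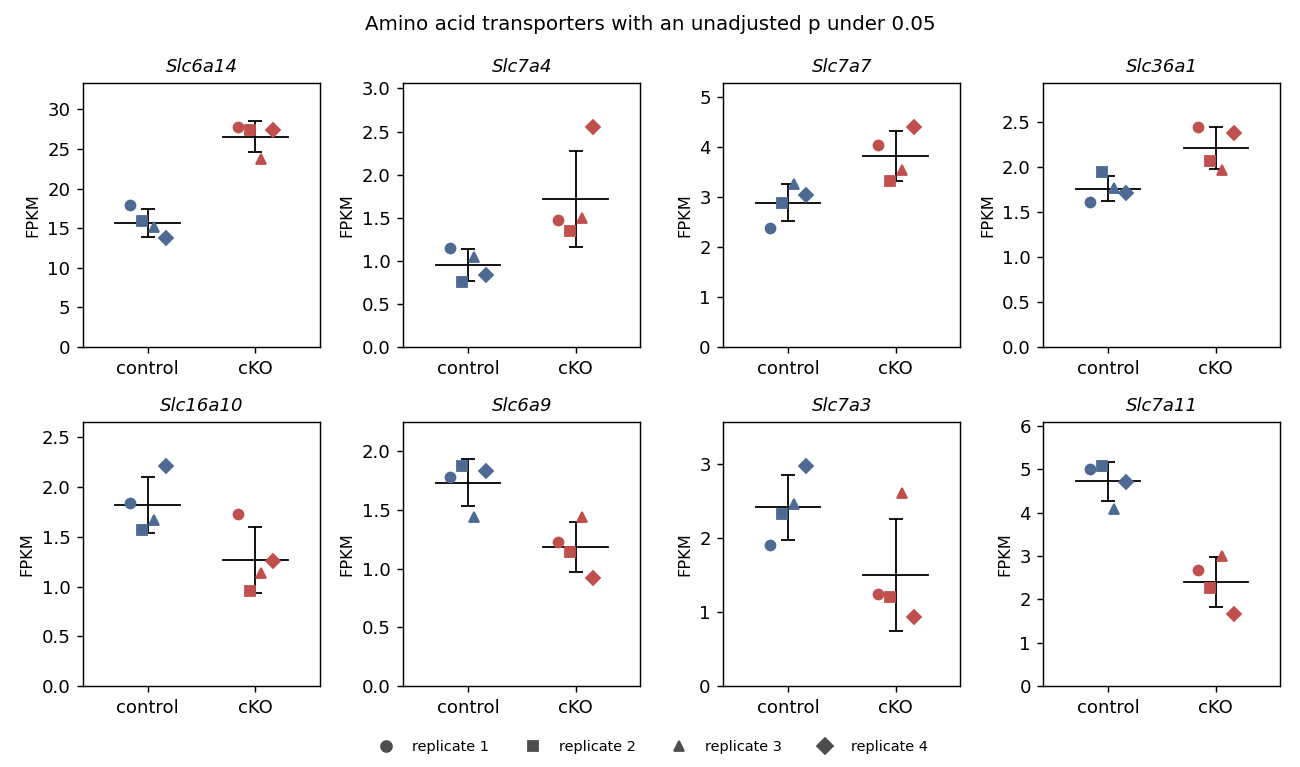
FPKM (y axis) in each control and cKO library (x axis) of the 8 members with an unadjusted p under 0.05; symbols mark the replicate number, lines the group mean and bars ± 1 SD, n = 4. The groups do not overlap for Slc6a14, Slc7a4, Slc7a7, Slc36a1 and Slc7a11, and cKO replicate 3 lies in the control range for Slc7a3 and Slc6a9.

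The cationic amino acid transporters of the SLC7 family work without a heavy chain. Slc7a1 (CAT-1), which carries arginine, lysine and ornithine, was the most abundant of them and ranged from 13.4 to 16.6 FPKM in control and 9.78 to 15.9 FPKM in cKO, with cKO replicate 3 the highest cKO library. Slc7a1 missed the unadjusted threshold (log2 difference of -0.30, limma, unadjusted p = 0.0559) and was called lower under each of the 3 other scalings and with limma-voom. The same call was made without control replicate 3 (log2 difference of -0.36, limma, unadjusted p = 0.0414) and without cKO replicate 3 (log2 difference of -0.42, limma, unadjusted p = 0.00444). Slc7a2 (CAT-2), which also carries cationic amino acids, ranged from 6.0 to 8.29 FPKM in control and 4.03 to 7.4 FPKM in cKO and was not called (log2 difference of -0.22, limma, unadjusted p = 0.21) other than as lower by limma-voom with a replicate block (unadjusted p = 0.0284). Its log2 difference ran from -0.31 to -0.06 with 1 library left out (unadjusted p of up to 0.60, limma).

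Slc7a3, or CAT-3 (ENSMUSG00000031297, chrX:101079210-101086020, minus strand), the third cationic transporter, measured 1.91, 2.32, 2.46 and 2.97 FPKM in control replicates 1 to 4 and 1.25, 1.2, 2.61 and 0.939 FPKM in cKO replicates 1 to 4. In cKO replicate 3 it lay within the control range, and in the other cKO libraries it lay below every control library. Slc7a3 averaged 2.41 ± 0.44 FPKM in control and 1.5 ± 0.754 FPKM in cKO (SD, n = 4), a ratio of 0.621. It was called lower without adjustment only (log2 difference of -0.48, SE 0.189, limma, unadjusted p = 0.0306, adjusted p = 0.249). This call was lost without any 1 of control replicates 2, 3 and 4 or cKO replicates 1, 2 and 4 (unadjusted p of 0.0511 to 0.0853 with limma), and the difference reached -0.68 without cKO replicate 3.

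Slc7a4 (ENSMUSG00000022756, chr16:17572018-17583214, minus strand) resembles these transporters in sequence, but transport by it is not established. It measured 1.15, 0.751, 1.05 and 0.834 FPKM in control replicates 1 to 4 and 1.47, 1.34, 1.5 and 2.55 FPKM in cKO replicates 1 to 4. The control libraries were below all cKO libraries, and cKO replicate 4 stood above the rest. Slc7a4 averaged 0.947 ± 0.186 FPKM in control and 1.72 ± 0.562 FPKM in cKO (SD, n = 4), a ratio of 1.81 at 54 to 197 reads per library. It was called higher without adjustment only (log2 difference of 0.47, SE 0.142, limma, unadjusted p = 0.00962, adjusted p = 0.157), in each of the 19 alternatives, with a log2 difference of 0.33 at the lowest when a library was left out and of 0.86 at the highest, with limma-voom and a replicate block.

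Slc6a14 (ENSMUSG00000031089, chrX:21714896-21742355, plus strand) encodes ATB0,+, which takes up neutral and cationic amino acids with sodium and chloride. It measured 17.9, 15.9, 15.1 and 13.8 FPKM in control replicates 1 to 4 and 27.8, 27.4, 23.7 and 27.4 FPKM in cKO replicates 1 to 4. All 4 cKO values exceeded all 4 control values, and cKO replicate 3 was the lowest of the cKO libraries. Slc6a14 averaged 15.7 ± 1.75 FPKM in control and 26.6 ± 1.9 FPKM in cKO (SD, n = 4), a ratio of 1.69, and by mean FPKM it held rank 5 among the members in control and rank 4 in cKO. The rise passed the adjusted threshold (log2 difference of 0.73, SE 0.0882, limma, unadjusted p = 1.82e-05, adjusted p = 0.0204). The unadjusted call held in each of the 19 alternatives (log2 differences of 0.67 to 0.79). The adjusted call was lost with no filter on low values and without control replicate 2, 3 or 4 or cKO replicate 2 or 4, with adjusted p of up to 0.0786 and log2 differences of 0.67 to 0.79 over the libraries left out. Slc6a14 differed in the same direction as the alveolar markers, whose part in it was not tested.

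Slc6a9 (ENSMUSG00000028542, chr4:117834506-117875198, plus strand) encodes GlyT1, which takes up glycine. It measured 1.78, 1.88, 1.44 and 1.83 FPKM in control replicates 1 to 4 and 1.23, 1.14, 1.45 and 0.922 FPKM in cKO replicates 1 to 4. The lowest control library, replicate 3, and the highest cKO library, replicate 3, had nearly equal values, and the other libraries were separated by group. Slc6a9 averaged 1.73 ± 0.199 FPKM in control and 1.19 ± 0.217 FPKM in cKO (SD, n = 4), a ratio of 0.684. It was called lower without adjustment only (log2 difference of -0.33, SE 0.0975, limma, unadjusted p = 0.00881, adjusted p = 0.153), in each of the 19 alternatives (log2 differences of -0.57 to -0.27). Exons of B4galt2 on the other strand, with up to 161 reads in a library, overlap those of Slc6a9, with 88 to 177 reads. The taurine transporter Slc6a6 ranged from 6.46 to 7.27 FPKM in control and 6.11 to 7.19 FPKM in cKO and was not called (log2 difference of -0.02, limma, unadjusted p = 0.80).

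Of the SLC1 family, Slc1a5 (ASCT2) exchanges neutral amino acids, glutamine among them, and held rank 4 among the members by control mean. It measured 29.5, 18.6, 23.7 and 22.1 FPKM in control replicates 1 to 4 and 10.6, 20.1, 21.4 and 21.2 FPKM in cKO replicates 1 to 4. cKO replicate 1 was far below all 7 other libraries, and the other cKO libraries lay within the control range. Slc1a5 averaged 23.5 ± 4.54 FPKM in control and 18.3 ± 5.17 FPKM in cKO (SD, n = 4), without a call (log2 difference of -0.37, SE 0.222, limma, unadjusted p = 0.129, adjusted p = 0.453), and the log2 difference was -0.14 without cKO replicate 1.

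The related exchanger Slc1a4 (ASCT1), for alanine, serine and cysteine, ranged from 12.8 to 15 FPKM in control and 12.4 to 15.6 FPKM in cKO (log2 difference of 0.04, limma, unadjusted p = 0.639). Among the glutamate and aspartate transporters, Slc1a1 (EAAT3) ranged from 1.92 to 2.02 FPKM in control and 1.44 to 1.87 FPKM in cKO. Slc1a1 did not overlap between the groups but missed the unadjusted threshold (log2 difference of -0.16, limma, unadjusted p = 0.0598), and it was called lower with TPM, library totals, limma-voom without and with a replicate block, and no trend, and without cKO replicate 2 (log2 difference of -0.19, limma, unadjusted p = 0.0395). Slc1a3 (GLAST) ranged from 0.818 to 1.06 FPKM in control and 0.746 to 1.07 FPKM in cKO and was not called (log2 difference of -0.01, limma, unadjusted p = 0.896). Slc1a2 (GLT-1), below the minimum for testing, ranged from 0.0484 to 0.0773 FPKM in control and 0.0336 to 0.131 FPKM in cKO.

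The SLC38 family had 8 members in the set, and limma called none of them. Slc38a2 (SNAT2), a sodium-coupled importer of small neutral amino acids that is known to rise when amino acids are scarce, measured 80.6, 74.4, 73.3 and 74.9 FPKM in control replicates 1 to 4 and 72.5, 63.2, 75.3 and 63.1 FPKM in cKO replicates 1 to 4. Control replicate 1 was the highest library and cKO replicates 2 and 4 were the lowest, and cKO replicates 1 and 3 lay near the other controls. Slc38a2 averaged 75.8 ± 3.26 FPKM in control and 68.5 ± 6.31 FPKM in cKO (SD, n = 4), a difference that missed the threshold (log2 difference of -0.15, SE 0.0771, limma, unadjusted p = 0.0895, adjusted p = 0.387). It was called lower without cKO replicate 3 (log2 difference of -0.19, limma, unadjusted p = 0.0351), with library totals and by limma-voom with a replicate block (unadjusted p = 0.0406).

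Slc38a1 (SNAT1), of the same transport system, ranged from 4.45 to 4.88 FPKM in control and 4.51 to 5.85 FPKM in cKO (log2 difference of 0.13, limma, unadjusted p = 0.177). Slc38a4 (SNAT4) ranged from 0.664 to 1.38 FPKM in control and 0.68 to 1.09 FPKM in cKO (log2 difference of -0.05, limma, unadjusted p = 0.74). Slc38a3 (SNAT3), which carries glutamine, asparagine and histidine, ranged from 1.13 to 1.3 FPKM in control and 1.06 to 1.97 FPKM in cKO (log2 difference of 0.17, limma, unadjusted p = 0.171). For all 3 the groups overlapped, and without cKO replicate 3 Slc38a3 alone of them was called, as higher (log2 difference of 0.26, limma, unadjusted p = 0.0207). With 1 library left out, the log2 difference of Slc38a3 ran from 0.09 to 0.26.

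At the lysosome, Slc38a7 releases glutamine and Slc38a9 senses arginine for mTORC1. Slc38a7 ranged from 4.54 to 6.02 FPKM in control and 5.68 to 6.9 FPKM in cKO (log2 difference of 0.19, limma, unadjusted p = 0.0829), and Slc38a9 ranged from 0.636 to 1.04 FPKM in control and 0.826 to 0.937 FPKM in cKO (log2 difference of 0.03, limma, unadjusted p = 0.703). The less studied Slc38a10 and Slc38a6 lay far apart in level: Slc38a10 ranged from 10.5 to 14.2 FPKM in control and 12.1 to 15.5 FPKM in cKO (log2 difference of 0.13, limma, unadjusted p = 0.258) and Slc38a6 from 0.644 to 0.838 FPKM in control and 0.736 to 0.965 FPKM in cKO (log2 difference of 0.10, limma, unadjusted p = 0.261). The groups overlapped for each of these 4 genes. Slc38a7 was called higher in each of the 3 fits with a block (unadjusted p = 0.0451 with a replicate block, limma) and without control replicate 4 (log2 difference of 0.25, limma, unadjusted p = 0.0373).

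Slc36a1 (ENSMUSG00000020261, chr11:55204350-55236330, plus strand) encodes PAT1, which moves glycine, alanine and proline with protons, at the lysosome among other sites. It measured 1.61, 1.95, 1.77 and 1.71 FPKM in control replicates 1 to 4 and 2.45, 2.07, 1.97 and 2.38 FPKM in cKO replicates 1 to 4. All cKO libraries were above all control libraries, with cKO replicate 3 and control replicate 2 close to each other. Slc36a1 averaged 1.76 ± 0.142 FPKM in control and 2.22 ± 0.234 FPKM in cKO (SD, n = 4), a ratio of 1.26. It was called higher without adjustment only (log2 difference of 0.22, SE 0.080, limma, unadjusted p = 0.0231, adjusted p = 0.222). The call was lost with each of the 3 other scalings, with a replicate block and without control replicate 1 or 4 or cKO replicate 1 or 4 (unadjusted p of 0.0522 to 0.0638, limma, with a library left out). Slc36a4 (PAT4), of the same family, ranged from 1.92 to 2.29 FPKM in control and 1.36 to 2.11 FPKM in cKO and was not called (log2 difference of -0.17, limma, unadjusted p = 0.105) other than as lower without cKO replicate 1 (log2 difference of -0.24, limma, unadjusted p = 0.0254). With 1 library left out, the log2 difference of Slc36a4 ran from -0.24 to -0.11.

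Slc16a10 (ENSMUSG00000019838, chr10:40033532-40142258, minus strand) encodes TAT1, through which aromatic amino acids leave or enter cells by facilitated diffusion. It measured 1.84, 1.57, 1.67 and 2.21 FPKM in control replicates 1 to 4 and 1.73, 0.956, 1.14 and 1.25 FPKM in cKO replicates 1 to 4. In cKO replicate 1 the value was within the control range, and the other cKO libraries were below every control library. Slc16a10 averaged 1.82 ± 0.281 FPKM in control and 1.27 ± 0.328 FPKM in cKO (SD, n = 4), a ratio of 0.696. It was called lower without adjustment only (log2 difference of -0.32, SE 0.119, limma, unadjusted p = 0.0246, adjusted p = 0.229), and the call was lost without control replicate 4, cKO replicate 2 or cKO replicate 3 (unadjusted p of 0.0574 to 0.0713 with limma).

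Slc15a2 encodes PEPT2, which takes up dipeptides and tripeptides with protons. It measured 13.3, 20.5, 14.4 and 2.22 FPKM in control replicates 1 to 4 and 30.0, 13.5, 11.9 and 18.5 FPKM in cKO replicates 1 to 4. It was low in control replicate 4 and high in cKO replicate 1, and the remaining libraries of both groups lay between these and overlapped. The mean log2 difference was close to that of Slc6a14 but not called, with an SE of 0.552 (log2 difference of 0.72, limma, unadjusted p = 0.223), and it was 0.13 without control replicate 4.

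The 3 members of the SLC43 family were not called. Slc43a1 (LAT3) and Slc43a2 (LAT4) let large neutral amino acids through by facilitated diffusion, and ranged from 0.48 to 0.747 FPKM in control and 0.408 to 0.678 FPKM in cKO (log2 difference of -0.07, limma, unadjusted p = 0.466) and from 2.84 to 3.9 FPKM in control and 2.8 to 3.81 FPKM in cKO (log2 difference of -0.05, limma, unadjusted p = 0.638). Slc43a3, the most abundant of the family and known as a carrier of purine nucleobases and not of amino acids, ranged from 11.1 to 11.7 FPKM in control and 9.51 to 12.1 FPKM in cKO (log2 difference of -0.06, limma, unadjusted p = 0.422).

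**Figure D3:**
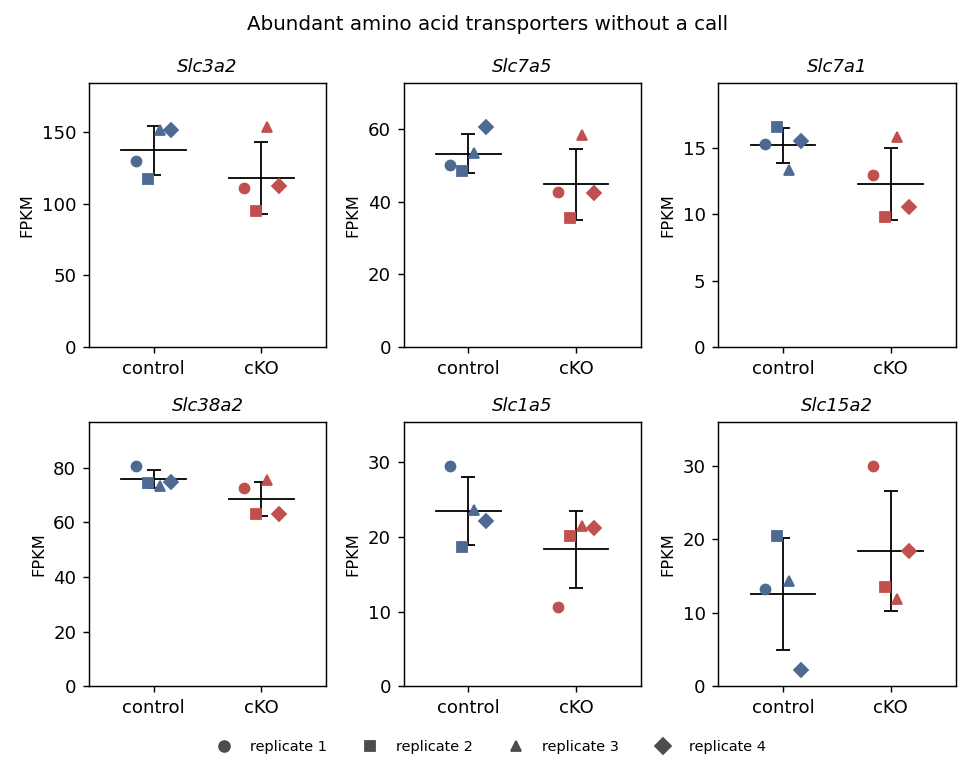
FPKM (y axis) in each control and cKO library (x axis) of 6 abundant members that were not called; symbols mark the replicate number, lines the group mean and bars ± 1 SD, n = 4. In the panels of Slc3a2, Slc7a5, Slc7a1, Slc38a2 and, by little, Slc1a5, cKO replicate 3 is the highest cKO library. Slc1a5 and Slc15a2 have single libraries far from the rest of their group. Slc1a4, Slc38a10 and Slc43a3, also not called and with control means of at least 10 FPKM, are not shown.

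Slc3a2, Slc7a5, Slc7a1, Slc7a3 and Slc38a2, known targets of ATF4 among them, were each highest in replicate 3 among the cKO libraries. These 5 members were picked out after their values were seen. Over all 32 members tested, cKO replicate 3 was the highest cKO library for 9, and cKO replicate 1 was for 12, beside 26.9% and 24.5% of all genes tested. Without cKO replicate 3, 5 members were called higher and 7 lower at the unadjusted threshold, beside 8.72% and 7.88% of all genes. Slc3a2, Slc7a1, Slc7a5 and Slc38a2 joined the lower members, Slc16a10 left them and Slc38a3 joined the higher ones. Without control replicate 4, 2 of the 32 members were called lower, Slc7a11 and Slc6a9, beside 6.45% of all genes.

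For the amino acid response only mRNA was measured, and neither GCN2 activity nor translation of ATF4. Of the list of 19 genes of the GCN2 and ATF4 pathway, all were tested. At the unadjusted threshold, 2 were higher in cKO (Phgdh and Pycr1) and 3 were lower (Ddit3, Shmt2 and Mthfd2), beside 8.85% and 7.53% of all genes tested. The other 14 were not called, 0 passed the adjusted threshold, and the median log2 difference was -0.17. In the alternatives, Phgdh, Ddit3, Mthfd2 and Shmt2 passed the adjusted threshold in 1 of 19 each, which was without cKO replicate 3 for Mthfd2 and Shmt2. Atf4 itself ranged from 325 to 420.4 FPKM in control and 305 to 391 FPKM in cKO (log2 difference of -0.17, limma, unadjusted p = 0.183), and Asns, which makes asparagine, ranged from 35.8 to 47.6 FPKM in control and 30.2 to 56.9 FPKM in cKO (log2 difference of -0.09, limma, unadjusted p = 0.648). Atf4 was called lower under each of the 3 other scalings and in each of the 3 fits with a block (unadjusted p = 0.0362 with a replicate block and 0.0232 with replicates 1 and 2 as 1 block and 3 and 4 as the other, limma, and 0.0193 by limma-voom with a replicate block). cKO replicate 3 was the highest cKO library for 14 of the 19, beside 26.9% of all genes tested and 9 of the 32 members tested. Among control libraries, replicate 4 was the highest for 11 of the 19 and replicate 3 for 6, beside 23.7% and 29.6% of all genes tested. Asns was called lower without cKO replicate 3 (log2 difference of -0.30, limma, unadjusted p = 0.0301). With 1 library left out, its log2 difference ran from -0.30 to 0.002 (unadjusted p of up to 0.997, limma).

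Phgdh, the first enzyme of serine synthesis, measured 25.7, 23.7, 36.7 and 34.4 FPKM in control replicates 1 to 4 and 49, 39.2, 83.1 and 38.3 FPKM in cKO replicates 1 to 4 (log2 difference of 0.73, limma, unadjusted p = 0.0161). The cKO libraries were all above the control libraries, with cKO replicate 3 far above the rest. Mthfd2, of mitochondrial folate metabolism, measured 31.8, 33, 36.7 and 44.7 FPKM in control replicates 1 to 4 and 21.3, 17.2, 43.4 and 15.9 FPKM in cKO replicates 1 to 4 (log2 difference of -0.66, limma, unadjusted p = 0.0415). In cKO replicate 3 it was at the control level, and in the other cKO libraries it was below every control library. Shmt2, which splits serine to glycine in mitochondria, ranged from 38.2 to 47.9 FPKM in control and 23.8 to 45.8 FPKM in cKO (log2 difference of -0.49, limma, unadjusted p = 0.0297), with the same cKO replicate 3 in the control range. Pycr1, of proline synthesis, ranged from 3.75 to 4.62 FPKM in control and 5.13 to 7.51 FPKM in cKO (log2 difference of 0.46, limma, unadjusted p = 0.00322), and the stress factor Ddit3 ranged from 11.2 to 13.9 FPKM in control and 9.31 to 11.2 FPKM in cKO (log2 difference of -0.31, limma, unadjusted p = 0.00802). The calls of Mthfd2 and Shmt2 were lost when some single libraries were left out, control replicates 3 and 4 and cKO replicates 1, 2 and 4 for both and control replicates 1 and 2 for Mthfd2 (unadjusted p of up to 0.114 for Mthfd2 and 0.0835 for Shmt2, limma), and that of Mthfd2 with no filter on low values, while without cKO replicate 3 the log2 differences were -0.97 and -0.69.

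Of 21 genes for the sensing of amino acids by mTORC1, 20 were tested, and 15 were not called. At the unadjusted threshold, 3 were higher in cKO (Lamtor3, Rragd and Rragc) and 2 lower (Sesn2 and Mtor), beside 8.85% and 7.53% of all genes tested. None passed the adjusted threshold, and the median log2 difference was -0.03. In the alternatives, Sesn2 passed the adjusted threshold in 2 of 19 and Lamtor3 and Rragd in 1 each. The leucine sensor Sesn2, also a target of ATF4, ranged from 32.2 to 41.6 FPKM in control and 16.9 to 37.3 FPKM in cKO (log2 difference of -0.66, limma, unadjusted p = 0.0161), with cKO replicate 3 within the control range. Lamtor3, of the Ragulator complex that anchors mTORC1 at the lysosome beside Slc38a9, ranged from 10.7 to 13.5 FPKM in control and 14.6 to 15.6 FPKM in cKO (log2 difference of 0.34, limma, unadjusted p = 0.00166). The Rag GTPases Rragd and Rragc ranged from 0.842 to 1.07 FPKM in control and 1.23 to 1.8 FPKM in cKO (log2 difference of 0.34, limma, unadjusted p = 0.00476) and from 20.0 to 23.1 FPKM in control and 23.1 to 26.1 FPKM in cKO (log2 difference of 0.17, limma, unadjusted p = 0.0316), and Mtor ranged from 5.03 to 6.19 FPKM in control and 4.48 to 5.17 FPKM in cKO (log2 difference of -0.20, limma, unadjusted p = 0.0296). The call of Rragc was lost with each of the 3 other scalings, with a replicate block and without control replicate 2, 3 or 4 or cKO replicate 2 or 4 (unadjusted p of up to 0.0893, limma). That of Mtor was lost with TPM without milk genes in the sum (unadjusted p = 0.0585, limma) and without control replicate 1 or 2 or cKO replicate 1, 3 or 4 (unadjusted p of up to 0.0843, limma).

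Among 31 other transporters of amino acids or peptides at the plasma membrane or lysosome, 5 reached the minimum for testing. Of these, 1 was higher in cKO and 2 were lower, beside 8.85% and 7.53% of all genes tested, and none passed the adjusted threshold. In the alternatives, Ctns passed the adjusted threshold in 1 of 19 and Slc6a17 in 2 of 18. The lysosomal cystine exporter Ctns ranged from 4.92 to 6.49 FPKM in control and 7.24 to 11.1 FPKM in cKO (log2 difference of 0.51, limma, unadjusted p = 0.0030), opposite in direction to the cystine importer Slc7a11. The lysosomal peptide transporter Slc15a3 ranged from 4.13 to 5.62 FPKM in control and 2.21 to 3.69 FPKM in cKO (log2 difference of -0.50, limma, unadjusted p = 0.00602), and the neuronal neutral amino acid transporter Slc6a17 from 1.16 to 1.29 FPKM in control and 0.625 to 0.932 FPKM in cKO (log2 difference of -0.36, limma, unadjusted p = 0.00173). Slc38a5 (SNAT5), below the minimum, ranged from 0.0713 to 0.154 FPKM in control and 0.024 to 0.169 FPKM in cKO. Of 10 mitochondrial carriers, 8 were tested, and 1 was called higher and 1 lower, beside 8.85% and 7.53% of all genes tested. The serine transporter Sfxn1 was higher (1.93 to 2.53 FPKM in control and 2.85 to 3.22 FPKM in cKO, log2 difference of 0.27, limma, unadjusted p = 0.00864). The aspartate and glutamate carrier Slc25a13 was lower (14.4 to 16.1 FPKM in control and 11.8 to 14.3 FPKM in cKO, log2 difference of -0.22, limma, unadjusted p = 0.0158).

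Promoter sequences of 300 bases around the start of a gene (RefSeq, GRCm38.p6) were matched by symbol for 24 of the 33 members, with 35 promoters. Slc1a5, Slc6a6, Slc7a2, Slc7a3, Slc7a4, Slc7a5, Slc38a1, Slc38a3 and Slc43a3 had none. They were searched on both strands for TGATGNAA, the form of the amino acid response element bound by ATF4 with C/EBP proteins, and for TTCNNNGAA, the form bound by STAT5, the factor that carries the prolactin signal to milk protein genes. TGATGNAA was found in 4 of the 35 promoters (11.4%), of Slc7a11, Slc7a7 and Slc1a4, against 3.97% of the 32851 mouse promoters in the table. Of these, 2 are overlapping promoters of Slc7a7 that share a match. TTCNNNGAA was found in 4 (11.4%), of Slc7a11, Slc7a1, Slc1a3 and Slc38a9, against 8.3% of all promoters. No match of one motif in a member overlapped a match of the other.

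The promoters of Slc7a11 (chr3:50443564-50443863, minus strand) and Slc6a14 (chrX:21714650-21714949, plus strand) are shown because these members passed the adjusted threshold in opposite directions. Both are written 5′ to 3′ on the strand of the gene, and capitals mark matches of either motif. Slc7a11 holds 1 match of TTCNNNGAA and 2 of TGATGNAA on opposite strands, and Slc6a14 holds no match in this window. A match is a string of letters, and binding to it was not measured.
Slc7a11: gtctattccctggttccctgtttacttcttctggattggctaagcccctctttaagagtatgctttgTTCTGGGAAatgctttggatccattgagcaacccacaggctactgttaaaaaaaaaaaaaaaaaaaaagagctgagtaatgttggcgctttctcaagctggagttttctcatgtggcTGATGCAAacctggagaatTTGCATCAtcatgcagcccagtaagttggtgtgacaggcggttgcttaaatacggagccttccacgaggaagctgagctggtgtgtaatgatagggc
Slc6a14: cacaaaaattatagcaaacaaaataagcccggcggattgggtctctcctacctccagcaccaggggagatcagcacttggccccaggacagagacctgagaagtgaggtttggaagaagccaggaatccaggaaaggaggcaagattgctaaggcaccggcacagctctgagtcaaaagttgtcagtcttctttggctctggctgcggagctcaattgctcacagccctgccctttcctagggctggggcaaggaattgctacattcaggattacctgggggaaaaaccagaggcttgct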

How the data were processed

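Libraries of 4 control and 4 cKO mice were grouped by their labels. The authors prepared NEBNext Ultra libraries, aligned them with Hisat2 (GRCm38) and deposited FPKM per gene; the submitters' processing notes name StringTie 1.3.3b, featureCounts 1.5.0-p3 and mm9, without their roles. Gene coordinates equal those of GENCODE vM21 (GRCm38) for 99.7% of 55480 shared identifiers. Counting by strand is not stated. FPKM times gene length gave whole reads for 100% of values above 0 (tolerance 0.01 of a read), and the authors' FPKM already include median-of-ratios size factors.

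The groups were compared by limma 3.58.1 in R 4.3.3 on values of log2(FPKM + 1) (eBayes with trend, two-sided, Benjamini-Hochberg over 15143 genes with a mean of at least 0.5 FPKM); the procedure was tested on simulated data. Members and lists were chosen with earlier results of these data known. Every member is named; full values are given for members with an unadjusted p under 0.05 and the 5 with the highest control mean, and from other lists genes with an unadjusted p under 0.05 (at most 6 per list) with Atf4, Asns and Slc38a5. Slc15a2, Bmpr1a and marker sums were added to these. Of entries that share a name, the more abundant was taken; Slc66a1 is entered as Pqlc2. A marker of the lymphocyte list is not reported here, and the list was counted and summed without it. Python 3.11.15, pandas 2.3.3, scipy 1.17.1 and matplotlib 3.10.9 served other steps. Alternatives were another pseudocount, filter, scaling, block, limma-voom on recovered reads, no trend, and each library left out.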

Additional observations from a re-analysis of the deposited data

Results flagged for a closer look

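In 5 of 104 groups of 4 values, a single library stood far from the others by Dixon's ratio of gap to range at the 95% level, and chance alone gives about 1 in 20 groups. Slc1a5 was 10.6 FPKM in cKO replicate 1, against 20.1 to 21.4 FPKM in the other libraries of its group. Slc7a4 was 2.55 FPKM in cKO replicate 4, against 1.34 to 1.5 FPKM in the other libraries of its group. Slc6a14 was 23.7 FPKM in cKO replicate 3, against 27.4 to 27.8 FPKM in the other libraries of its group, and every library of cKO exceeded control. Slc1a4 was 15 FPKM in control replicate 4, against 12.8 to 13.1 FPKM in the other libraries of its group. Shmt2 was 45.8 FPKM in cKO replicate 3, against 23.8 to 27.4 FPKM in the other libraries of its group. The cause of these values was not tested.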

How the results depend on the processing

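Under 19 alternatives each of the 8 called members kept its direction, and 135 of 152 repeats of their unadjusted calls held. Members not called passed the unadjusted threshold in 36 of 451 repeats. Members called lower numbered 8 with TPM, 9 with library totals and 9 with limma-voom and a replicate block, against 4, and from 2 to 7 with a library left out. Of all genes, 10.9%, 11.8% and 10.8% were called lower in these 3 settings, against 7.53%, and 6.05% to 7.88% with a library left out. The count of members with an adjusted call, 2, fell to 0 with no filter on low values, where 31373 genes were tested, and ranged from 0 to 2 with a library left out. The median log2 difference of members was -0.15 for those with a mean of at least 1 FPKM, a smaller set of 27, -0.10 with TPM (beside -0.05 over all genes with TPM and 0.0007 without it), and -0.10 to -0.0088 with a library left out. All genes with an adjusted call, 135, numbered 10 with no filter, 252 with limma-voom, 680 with limma-voom and a replicate block, 442 with replicates 1 and 2 as 1 block and 3 and 4 as the other, and 0 to 78 with a library left out; 0 was reached without control replicate 4, where 2134 genes had an unadjusted p under 0.05 with limma. Beyond fewer libraries or more genes tested, the cause was not tested. Of the genes named from the lists for the amino acid response, mTORC1 sensing, other transporters and mitochondrial carriers, each of those tested other than Asns kept its direction in each alternative that tested it; markers of cell types and Slc38a5 were not followed in this way.

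The groups share replicate numbers. Deviations from the group means correlated by 0.0797 to 0.137 between libraries with the same number and by 0.13 on average between other numbers within replicates 1 and 2 or 3 and 4, and by -0.12 on average between replicates 1 and 2 on one side and 3 and 4 on the other. Each correlation was above 0 within these sets and below 0 between them. Deviations from a group mean sum to 0 over the group, so the values below 0 are not a separate observation from those above 0. The source of this pattern was not tested. Not every library correlated best with its own number, the number was not taken to pair mice, and no block was used other than in the alternatives with a block. With a replicate block, 50 genes and 1 member (Slc6a14) passed the adjusted threshold, and 4 members were higher and 5 lower at the unadjusted one, beside 11.1% and 9.55% of all genes. With the sets as blocks, 5 members were higher and 6 lower, beside 11.9% and 9.47% of all genes. Slc1a2, with 7 to 32 reads per library, was tested only with no filter on low values, and it was not called there.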
